A study of Caenorhabditis elegans with 2 samples.

Results

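The genes described here build and maintain the sensory cilia of the nematode Caenorhabditis elegans. They were taken from a list of 40 genes, and 39 of them were measured by 52 probe sets that name that gene alone, of 17118 genes measured on the array in the same way. The exception was ift-20, a subunit of a transport complex, for which no probe set naming it alone was found. RNA came from whole wild-type worms of the N2 strain that had been synchronised, fed on E. coli OP50 and, for the exposed group, kept in the dark in liquid S-medium. The exposed group met anatase, a crystal form of titanium dioxide, as nanoparticles at 500 µg/ml, and the control group met none. Each group is represented by 1 array, called replicate 3 in the labels. How old the worms were and how long they were exposed is not given in the labels used here. No difference below was tested and none carries a replicate error, since neither group has a second array here. The number of arrays limits the precision of every value.

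Cilia of the worm lie at the dendrite tips of sensory neurons, where many of them meet the outside through channels made by glia. They are built by intraflagellar transport, in which kinesin motors carry protein trains (complexes IFT-A and IFT-B) along microtubules to the tip and a dynein carries them back. The BBSome joins membrane cargo to the trains, and the transition zone at the cilium base acts as a gate. Worms that lack such genes often fail to take up dye into their sensory neurons and to sense chemicals or touch, and many of the genes were named for these defects (osm, che, dyf). Transcription of many of them depends on the RFX factor DAF-19.

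In the exposed worms most cilia genes had slightly lower signal than in control worms. Of the 39 measured genes, 27 were lower, 11 higher and bbs-1 equal, against 54.7% of all 17118 genes being lower. The median difference was −0.24 on the scale of log2(intensity + 16), exposed minus control, and −0.04 for all genes. Weakly read genes as a whole were also lower on the exposed array. For the 26 cilia genes that passed a minimum brightness, the median came to −0.05 after loess and after quantile scaling of the arrays. Among the role groups compared, the lowest was formed by daf-6, dyf-7 and che-14, which shape the glial channel and the dendrite tip, with a median of −0.52. It holds only 3 genes and was singled out as the lowest on these same arrays. The kinesin-II subunits differed in direction, with kap-1 and klp-20 lower and klp-11 higher. On this scale, differences of at least 2-fold were found only in probe sets that lay near the floor of 1 of the arrays: bbs-5, dyf-6 and mks-1 were higher, and che-2 and nphp-1 were lower. With 1 array per group, a difference between the worms cannot be told apart from one between the arrays. Because whole worms were used, the number of ciliated cells and the RNA per cell cannot be told apart either, and no cause was tested.

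Signal from these genes was weak throughout. The 52 probe sets had a median intensity of 28.7 on the exposed array and 37.5 on the control array, while all 22548 probe sets had a median of 117.8 on the exposed array and 123.1 on the control array. Only 5 of the 52 lay above the median of all probe sets on the exposed array, and 7 did so on the control array. An intensity below 16, the constant added before taking logarithms, was read by 14 of them on the exposed array and by 15 on the control array. Intensities ran between 0.9 and 390.0 on the exposed array, and between 0.8 and 403.6 on the control array. Such values place a probe set on its array and do not rank genes by abundance, since probes differ in how brightly they read. The plot of intensities by probe set shows the widest gaps at che-2, dyf-6, bbs-5, mks-1 and nphp-1, each with 1 reading below 16.

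**Figure D1:**
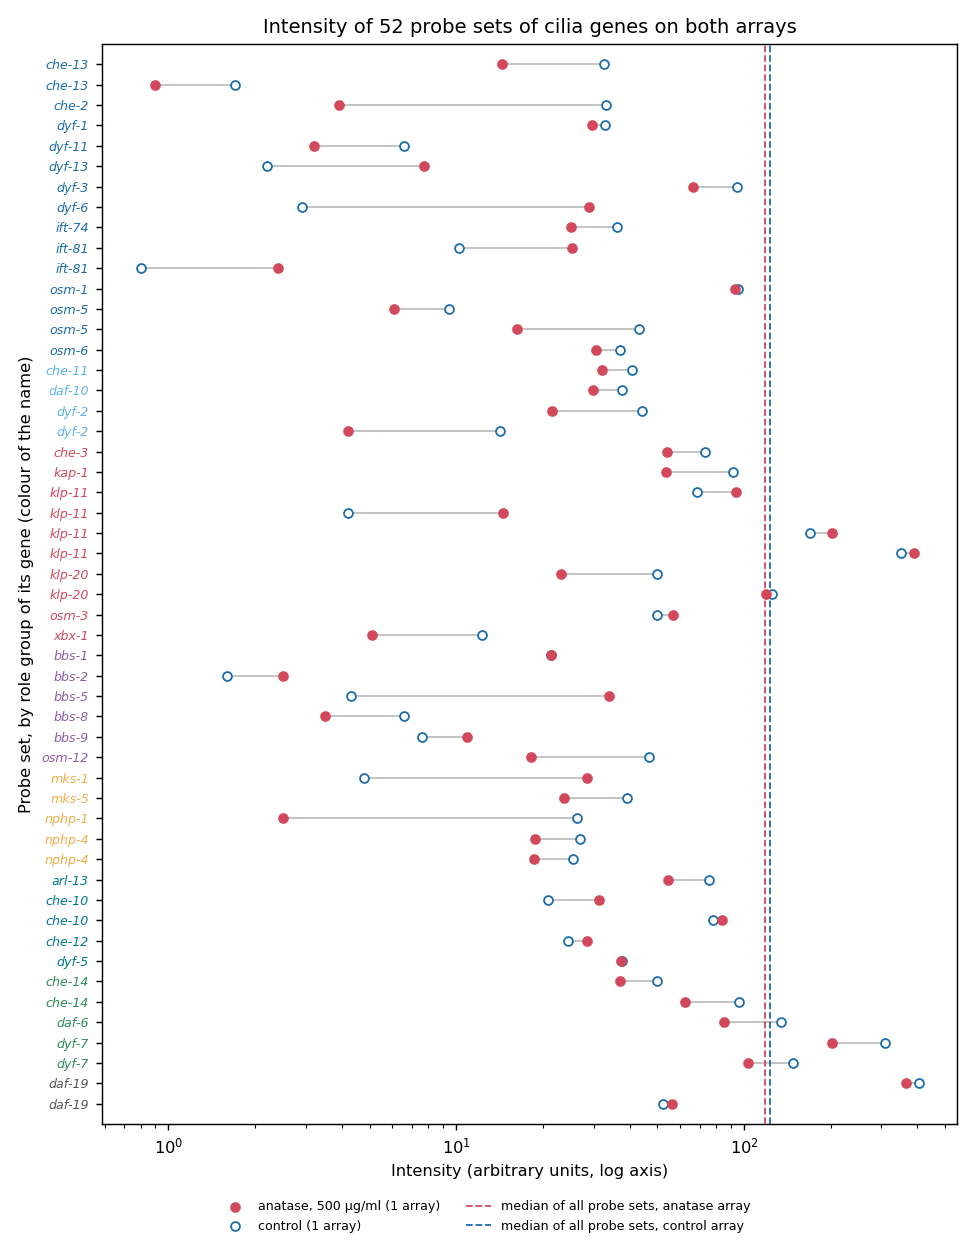
Intensity (arbitrary units, log axis) of each of the 52 probe sets on the exposed array (filled red) and the control array (open blue), 1 array each, with the names coloured by role group and dashed lines at the medians of all probe sets (117.8 exposed, 123.1 control). Few probe sets lie right of the dashed lines, and 34 of the 52 read lower on the exposed array. The share over all probe sets was not computed, and 54.7% of all 17118 genes were lower.

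Counts took only genes that, on the array that read them brighter, reached a minimum level, set at the 25th percentile of that array's intensities, which was 25.2 on the exposed array and 31.1 on the control array. This kept 26 of the 39 cilia genes and 13606 of all genes. Of the 26, 19 were lower on the exposed array, with a median difference of −0.24, against 53.2% of all genes kept and a median of −0.02. At least 2-fold higher were 3 of the 26, against 1.66% of all genes kept, and at least 2-fold lower was 1, against 3.07%. When the genes kept were divided by brightness into 4 groups of like size, all 4 were in the dimmest group, where such differences are common: 5.88% of all genes in that group were at least 2-fold higher, and 10.6% were lower by as much. That group held 18 of the cilia genes and the second dimmest the other 8, and none lay in the brighter groups.

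The filter thus lets in a dim gene through whichever array reads it higher. Of the 26 genes kept, 4 reached the level on the exposed array only (bbs-5, dyf-6, mks-1 and che-12) and had to be higher there to be kept, and 4 reached it on the control array only (che-2, osm-12, mks-5 and ift-74) and had to be lower. The other 18 reached it on both arrays. Among these 18, 15 were lower and 3 higher, with a median of −0.24 and no difference of 2-fold. Of all 12054 genes that reached the level on both arrays, 53.5% were lower. At least 2-fold, 0.241% were higher and 0.655% lower. Without any filter 3 cilia genes were at least 2-fold higher, against 1.58% of all genes, and 2 at least 2-fold lower, against 3.48%.

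Weakly read genes as a whole were lower on the exposed array. In the dimmest group the median difference was −0.21 for the 18 cilia genes and −0.19 for all 3402 genes. Of the 18, 12 were lower, against 61.1% of all genes in that group. In the second dimmest group the median was −0.41 for the 8 cilia genes and −0.07 for all 3401 genes. Of the 8, 7 were lower, against 57.5% of all genes in that group. When the dependence of the difference on brightness was removed by a loess correction, the median of the cilia genes was −0.05 and that of all genes 0.0044, and 15 of 26 were lower, against 49.3% of all genes. Quantile normalization gave −0.05 with 14 of 26 lower, and 0.0077 with 48.8% lower for all genes. Centring each array on its median left −0.18 with 16 of 26 lower, and 0.03 with 45.7% lower for all genes.

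**Figure D2:**
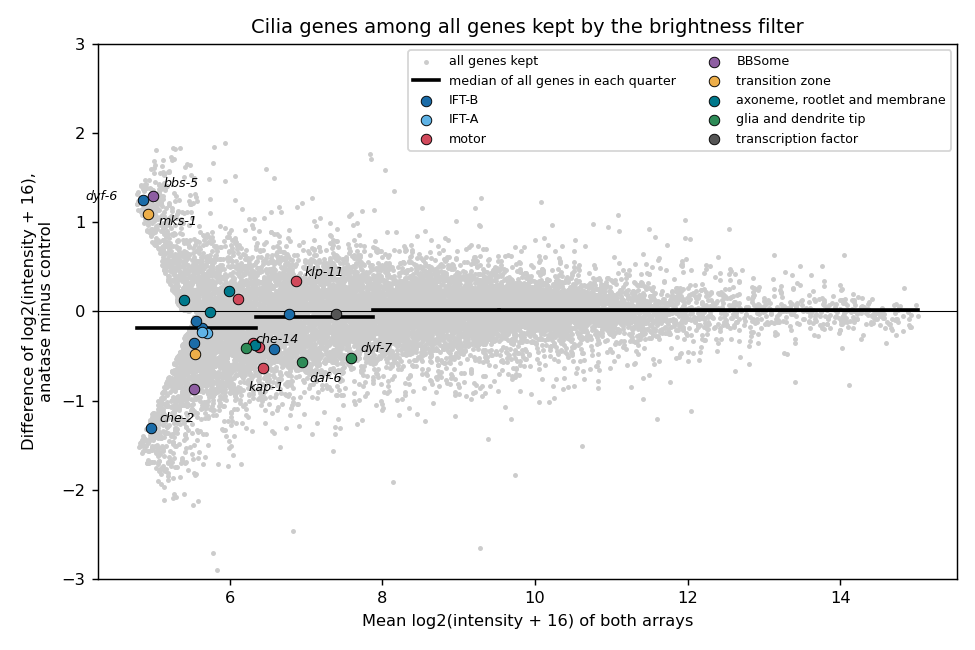
Difference of log2(intensity + 16), exposed minus control, against the mean of both arrays for the 13606 genes kept (grey) and the 26 cilia genes kept (coloured by role), with black bars at the median of all genes in each of 4 equal brightness groups. The cilia genes lie in the 2 dimmest groups, where the medians of all genes are −0.19 and −0.07, and the largest differences sit at the left edge.

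Genes read by more than 1 probe set gave the only technical spread. The SD of 1 probe set's difference was 0.45 log2 units across 812 such genes with 2 probe sets. These were kept by the filter and had a mean level in the range of the cilia genes kept. In 55.4% of the pairs both probe sets had the same sign. The difference exceeded that SD in 9 of the 26 cilia genes kept, against 37.6% of all genes in the same range. Of the 11 cilia genes read by several probe sets, 10 had all of them in 1 direction: che-13, che-14, dyf-2, dyf-7, klp-20, nphp-4 and osm-5 were lower, and che-10, ift-81 and klp-11 higher. The exception was daf-19. Unlike the genes behind the 55.4%, che-13, dyf-2, ift-81, nphp-4 and osm-5 lay under the filter, and klp-11 had 4 probe sets. The remaining 28 genes were read by 1 probe set each, and 10 of the 39 were read solely by shared probe sets, whose type can also detect related transcripts (che-3, che-11, che-12, daf-19, dyf-3, kap-1, klp-11, klp-20, nphp-1 and osm-3).

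IFT-B, the complex that travels outward with the kinesins, is represented by 12 measured genes, of which 9 were lower and 3 higher, with a median of −0.21. osm-5 encodes a core subunit. Its probe sets read 6.1 and 16.3 in exposed worms, against 9.4 and 43.3 in control worms, a mean difference of −0.54. che-13, another subunit, read 0.9 and 14.4 in exposed worms, against 1.7 and 32.5 in control worms, a difference of −0.37. Both genes were lower in each probe set, but both fell under the brightness filter. che-2, a WD-repeat subunit, read 3.9 in exposed worms and 33.1 in control worms, a difference of −1.30. Its exposed value lies at the floor of the array, so the size of this difference is not well fixed: it was −2.80 with a constant of 1 and −0.52 with a constant of 64.

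Among the subunits kept, those other than che-2 and dyf-6 differed by −0.42 to −0.03. osm-1, a peripheral subunit, read 92.7 in exposed worms and 94.9 in control worms, a difference of −0.03 that turned to 0.03, 0.06 and 0.05 under the 3 scalings. dyf-3, needed for cilia of full length, read 66.5 in exposed worms and 94.2 in control worms, a difference of −0.42. osm-6 read 30.7 in exposed worms and 37.2 in control worms (−0.19, and no difference under quantile normalization), and dyf-1, which helps the kinesin OSM-3 join the trains, read 29.5 in exposed worms and 32.9 in control worms (−0.10, turning to 0.08 under loess and 0.09 under quantile normalization). ift-74, part of the pair that binds tubulin cargo in other species, read 25 in exposed worms and 36.3 in control worms, a difference of −0.35. Its partner ift-81 went the other way: 25.2 and 2.4 in exposed worms, against 10.2 and 0.8 in control worms, a difference of 0.39, at levels under the filter. The remaining subunits were close to the floor. dyf-11 read 3.2 in exposed worms and 6.6 in control worms, and dyf-13 read 7.7 in exposed worms and 2.2 in control worms. dyf-6 read 29.0 in exposed worms and 2.9 in control worms, a difference of 1.25 that was 2.94 with a constant of 1 and 0.48 with a constant of 64. With a constant of 1, dyf-13 at 1.44 and ift-81 at 1.07 also passed 2-fold, both still under the filter. The median of the 7 subunits kept was −0.19, and it came to −0.0032 after loess and to 0 after quantile normalization.

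IFT-A, the complex needed for return transport, had 3 measured genes, all lower. dyf-2 read 21.5 and 4.2 in exposed worms, against 44.1 and 14.2 in control worms, and its probe sets differed by −0.68 and −0.58. This was the largest IFT-A difference, though dyf-2 lay under the filter. che-11 read 32.1 in exposed worms and 40.9 in control worms, a difference of −0.24, and daf-10 read 29.8 in exposed worms and 37.8 in control worms, a difference of −0.23. After loess both were small, at −0.06 for che-11 and −0.05 for daf-10.

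Among the 6 motor genes, 4 were lower and 2 higher. Heterotrimeric kinesin-II, which works with OSM-3 in the middle segment of the cilium, consists of the motor subunits KLP-11 and KLP-20 and the associated protein KAP-1. kap-1 read 53.4 in exposed worms and 91.8 in control worms, a difference of −0.64. klp-20 read 119.4 and 23.2 in exposed worms, against 124.6 and 49.8 in control worms, and its probe sets differed by −0.05 and −0.75. klp-11 was higher in each of its 4 probe sets, with 390.0, 201.2, 93.9 and 14.5 in exposed worms, against 351.4, 169.3, 68.7 and 4.2 in control worms, a mean difference of 0.34. The directions of all 3 genes were kept under each scaling, but with the brightest probe set alone klp-20 came to −0.05 and klp-11 to 0.14. All 3 were read solely by shared probe sets, and the kinesin family, to which klp-11 and klp-20 belong, is large.

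osm-3, the homodimeric kinesin that builds the distal segment alone, read 56.7 in exposed worms and 49.9 in control worms, a difference of 0.14. che-3, the heavy chain of the dynein that drives return transport, read 54.1 in exposed worms and 73.3 in control worms, a difference of −0.35. xbx-1, its light intermediate chain, read 5.1 in exposed worms and 12.3 in control worms, a difference of −0.42 under the filter. The median of the 5 motor genes kept was −0.35. It came to −0.21 after loess and to −0.05 with the brightest probe set of each gene.

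The BBSome genes were read weakly and had no common direction, with 2 of 6 lower, 3 higher and 1 equal. osm-12, the worm gene for a BBSome subunit first found by its osmotic avoidance defect, read 18.2 in exposed worms and 46.7 in control worms, a difference of −0.87. bbs-5 read 33.8 in exposed worms and 4.3 in control worms, a difference of 1.29. With a constant of 1 it was 2.72 and with a constant of 64 it was 0.52, and the control value lies at the floor. The other 4 lay under the filter: bbs-1 read 21.4 on both arrays, bbs-2 2.5 in exposed and 1.6 in control worms, bbs-8 3.5 in exposed and 6.6 in control worms, and bbs-9 10.9 in exposed and 7.6 in control worms.

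At the transition zone, 3 of 4 genes were lower. mks-5, a scaffold on which the other modules of the gate depend, read 23.7 in exposed worms and 39.3 in control worms, a difference of −0.48. nphp-4, of the nephrocystin module, was lower by a like amount in both probe sets, with 18.7 and 18.6 in exposed worms, against 27.0 and 25.4 in control worms, a mean of −0.28. Its partner nphp-1 read 2.5 in exposed worms and 26.3 in control worms, a difference of −1.19 at the floor of the exposed array. mks-1, of the other main module, read 28.4 in exposed worms and 4.8 in control worms, a difference of 1.09 at the floor of the control array. With a constant of 64 these came to −0.44 for nphp-1 and 0.43 for mks-1.

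The genes of the axoneme, rootlet and ciliary membrane were divided, 2 lower and 2 higher. arl-13, a small GTPase of the ciliary membrane whose human counterpart is mutated in Joubert syndrome, read 54.6 in exposed worms and 75.6 in control worms, a difference of −0.38. dyf-5, a kinase that limits cilium length, read 37.4 in exposed worms and 37.8 in control worms, a difference of −0.01 that was positive under each of the 3 scalings. che-12, a protein of the ciliary axoneme, read 28.4 in exposed worms and 24.5 in control worms (0.13). che-10, the rootletin of the worm, read 83.9 and 31.2 in exposed worms, against 77.8 and 20.8 in control worms, a mean difference of 0.22.

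daf-6, dyf-7 and che-14 act outside the cilium. daf-6 encodes a Patched-related protein that limits the width of the glial channel around the cilia, che-14 a Dispatched-related protein needed for secretion at the apical face of epidermal and glial cells, and dyf-7 a zona pellucida domain protein that anchors the dendrite tip while the neuron grows. daf-6 read 85.1 in exposed worms and 134.1 in control worms, a difference of −0.57. dyf-7 read 201.7 and 103.3 in exposed worms, against 309.8 and 148.0 in control worms, a mean difference of −0.52. che-14 read 62.5 and 37.0 in exposed worms, against 96.1 and 49.8 in control worms, a mean difference of −0.41. All 5 probe sets were lower in the exposed worms, and their differences ran between −0.58 and −0.31.

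daf-6, dyf-7 and che-14 kept their direction under each alternative that left them in the comparison. Their median was −0.46 with each array centred on its median, −0.49 after loess, −0.49 after quantile normalization and −0.52 without shared probe sets. It was lowest, at −0.57, with the brightest probe set of each gene and highest, at −0.41, with a constant of 64. The alternatives rework the same arrays, so they cannot show whether the differences would recur in other worms. Over the whole range of the cilia genes kept, the SD of 1 probe set's difference was 0.45, and 37.6% of all genes differed by more. That range is wider than the levels of these 3 genes, and dyf-7 and che-14 were averaged over 2 probe sets. The SD of the difference over all genes was 0.37 in the second dimmest group, which holds daf-6 and dyf-7. It was 0.68 in the dimmest, which holds che-14. With the filter set at the median of all probe sets, only daf-6, dyf-7 and daf-19 of all the cilia genes were kept. daf-6 and dyf-7 were also the cilia genes with the largest lower values among those in the second dimmest group, apart from kap-1.

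**Figure D3:**
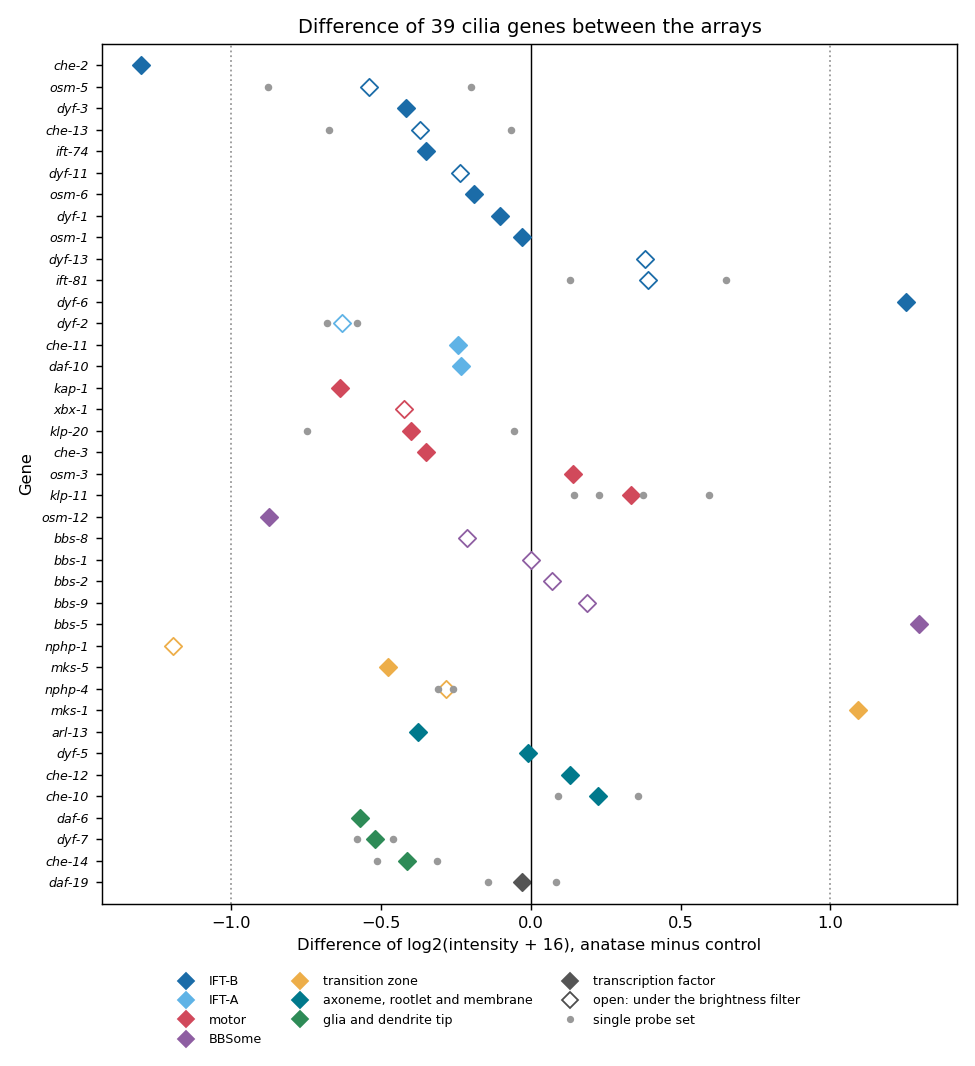
Difference of log2(intensity + 16), exposed minus control, for the 39 cilia genes in their role groups (diamonds, the mean over the probe sets of a gene, open where the gene lay under the brightness filter) and for single probe sets (grey dots, 1 array per group), with dotted lines at 2-fold. daf-6, dyf-7 and che-14 lie together between −0.57 and −0.41, while IFT-B, BBSome and transition zone genes spread to both sides of 0. The 3 IFT-A genes were also all lower, with dyf-2 at −0.63.

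daf-19, the RFX factor whose targets include many of the genes above, had probe sets that differed in direction. They read 363.9 and 56.2 in exposed worms, against 403.6 and 52.1 in control worms. The differences were −0.14 and 0.08, and the mean of −0.03 turned to 0.03, 0.04 and 0.05 under the 3 scalings. In all, 5 of the 39 genes changed sign or left 0 under at least 1 scaling: bbs-1, daf-19, dyf-1, dyf-5 and osm-1. The largest difference among them in size was −0.104, for dyf-1. osm-6, at −0.19, came to 0 under quantile normalization.

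Other genes of the same structures were divided too. A list of 48 further genes for cilium structure and transport, none of them among the 40, had 38 measured and 24 kept, of which 14 were lower and 10 higher, with a median of −0.07. Without the filter 24 of the 38 were lower and the median was −0.14. The GTPase gene arl-3 read 88.7 in exposed worms and 13.2 in control worms, a difference of 1.84, and the kinase gene mapk-15 read 58.8 in exposed worms and 8.3 in control worms, a difference of 1.62. tba-6, an alpha-tubulin of cilia, read 2.9 in exposed worms and 44.4 in control worms, a difference of −1.68, and mksr-1, of the transition zone, 13.3 in exposed worms and 42.9 in control worms, a difference of −1.01. All 4 again had 1 array at a low reading. The kinase gene cdkl-1, under the filter, read 2.2 in exposed worms and 27.1 in control worms (−1.24). Among the genes kept, the share of 2 higher and 2 lower of 24 at 2-fold may be set beside the 1.66% and 3.07% of all genes kept, or the 5.88% and 10.6% of the dimmest brightness group.

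Genes listed for signalling in ciliated neurons, not all of whose products act in the cilium, had 26 of 28 measured and 13 kept. Of the 13, 8 were lower, with a median of −0.13 that turned to 0.04 after loess and after quantile normalization. The G protein gene gpa-3 read 0.9 in exposed worms and 32 in control worms (−1.51), and the receptor kinase gene grk-2 3.4 in exposed worms and 39.8 in control worms (−1.52). The guanylyl cyclase gene gcy-23 of the thermosensory neurons went the other way, with 40.3 in exposed worms and 2.4 in control worms (1.61), and the channel gene ocr-1 had 28.3 in exposed worms and 12 in control worms (0.66). These 4 genes reached the minimum level on 1 array only. Under the filter, the channel gene ocr-4 read 0.6 in exposed worms and 23.3 in control worms (−1.24), the G protein gene gpa-13 2.2 in exposed worms and 26.5 in control worms (−1.22), and the channel gene cng-1 6.9 in exposed worms and 29.9 in control worms (just past 2-fold, with a shared probe set). Over all 26 signalling genes, 5 were thus at least 2-fold lower and 1 higher, against 3.48% and 1.58% of all genes without a filter. Of the 9 genes active in male sensory neurons only 3 were kept. Their median was −0.31, but it was 0.21 over all 9, and the polycystin gene pkd-2 read 2.0 in exposed worms and 32 in control worms (−1.42) with a shared probe set. Under the filter, cil-7 was at −0.50, also with a shared probe set, klp-6 at 0.71 and cwp-5 at 0.39.

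Genes listed for neurons or glia were set beside these values. In whole worms their signal need not come from those cells alone, so the medians do not show how far neurons or glia as a whole differed. Of 17 pan-neuronal genes kept, of 18 measured, 6 were lower and 11 higher, and their median was 0.07, or −0.07 when each gene was read by its brightest probe set. The lowest were sng-1 at −0.54 and ric-4 at −0.30, the highest ric-19 at 0.51 and rab-3 at 0.29, and none differed 2-fold. The 7 genes of touch neurons, which have no cilia, were all read solely by shared probe sets. They had 3 lower and 4 higher and a median of 0.18 (−0.0029 with the filter at the median), with mec-10 at 1.26 (35.8 in exposed worms and 5.6 in control worms) and mec-18 at 0.73, and with mec-7 at −0.29 and mec-4 at −0.24. Amphid glia genes had 5 of 6 kept lower and a median of −0.19, with ptr-10 lowest at −0.52 and kcc-3 next at −0.28, while vap-1 was at 0.03. Apart from the 2 alternatives named here, the medians of both neuronal lists lay above 0 and that of the small glial list below 0 in each setting that gave one. Without shared probe sets no touch neuron gene and too few glial genes were left to give a median. The lists also differ in brightness: with the filter at the median, 13 pan-neuronal genes but only 3 cilia genes were kept. All genes had medians of −0.19 and −0.07 in the dimmest and second dimmest groups, and 0.02 and 0.01 in the brighter groups. After loess the medians were −0.05 for the cilia genes and 0.08 for the pan-neuronal genes. The part of these cells in the values of the cilia genes was not tested.

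**Figure D4:**
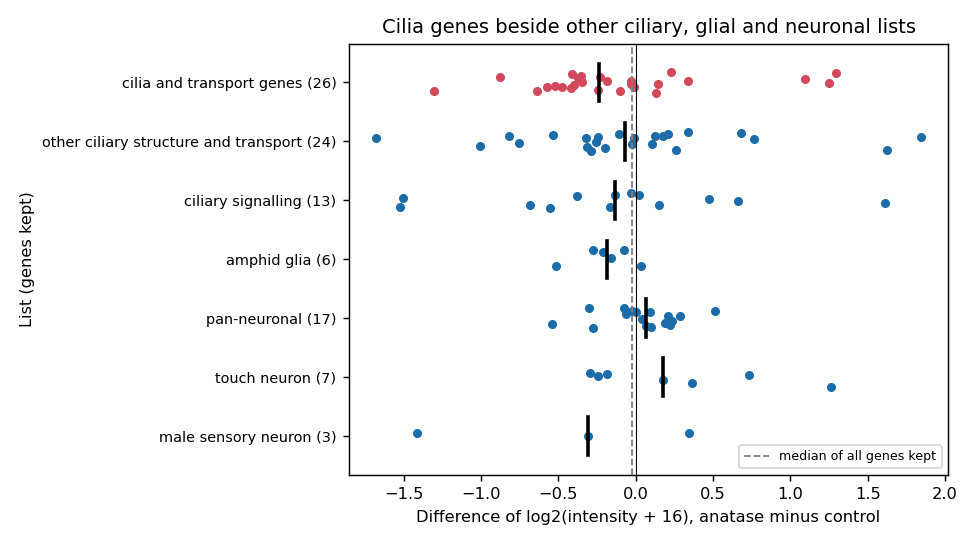
Difference of log2(intensity + 16), exposed minus control, for the cilia genes (red) and 6 other lists (blue), each point a gene kept by the brightness filter, with black bars at the median of each list and the dashed line at the median of all genes kept (−0.02). The medians are −0.24 for the cilia genes, −0.19 for amphid glia and 0.07 for pan-neuronal genes. The lists differ in brightness, and the medians are not matched for it.

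The plot of medians by processing shows how the values of the whole list and of daf-6, dyf-7 and che-14 moved. The list lay below all genes in each of the 10 settings, by the widest margin with the filter at the median, where only 3 genes remained, and by the narrowest after loess and quantile normalization.

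**Figure D5:**
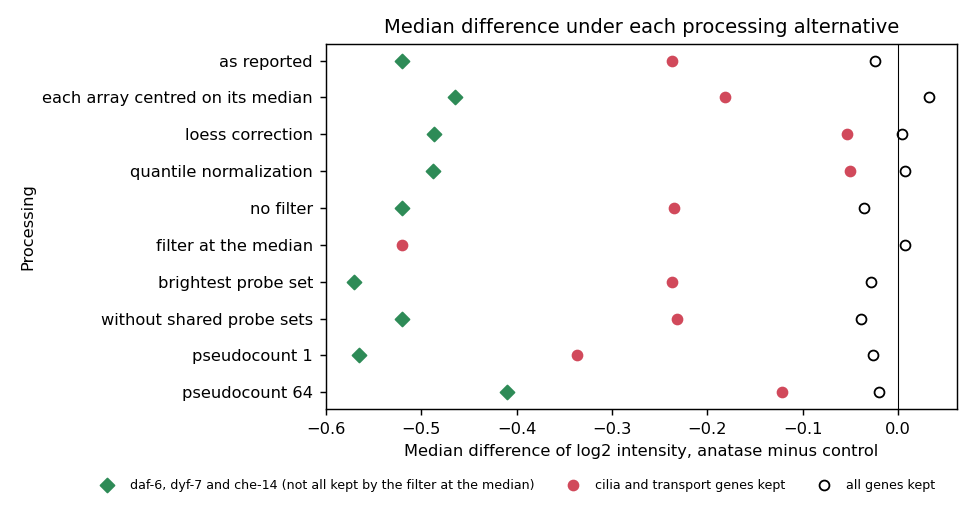
Median difference of log2 intensity, exposed minus control, under the reported processing and 9 alternatives, for daf-6, dyf-7 and che-14 (green diamonds, absent where they were not all kept), the cilia genes kept (red) and all genes kept (open). The red points come close to the open ones at −0.05 after loess and quantile normalization, while the green diamonds stay between −0.57 and −0.41.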

How the data were processed

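Per the labels' protocols, total RNA of whole worms was turned into biotin-labelled cRNA for an Affymetrix array. The values deposited by the authors are linear intensities of each probe set. Per the submitters' processing notes, Transcriptome Analysis Console was used. The summary algorithm is not given in the sources used here, nor is the scaling. Detection calls were not used here.

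Of 22548 probe sets, the platform annotation names 1 gene for 20766, several for 887 and none for 895, and only the first were used. The symbols of all 39 genes were the same in the RefSeq gene table (WBcel235) by gene number. The array names no build, so no coordinates are printed.

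Values are log2(intensity + 16), averaged over the probe sets of a gene, exposed minus control, which understates folds of dim genes. Every listed gene with a probe set was named, and of other lists those at least 2-fold different and the largest 2 in each direction, under the filter or not. The genes and lists were chosen with earlier results of these data known. No test was run. The steps were tested on simulated data with larger shifts than those of the cilia genes and less noise than the probe sets showed. Recovery of differences of the size reported here was not tested. The promoter motif search that had been planned was not run. Alternatives were 3 scalings (median centring, loess with a span of 30%, quantile), other filters, probe set choices, constants of 1 and 64, and thresholds of 1.5-fold and 3-fold. Python 3.11.15, numpy 2.4.6, pandas 2.3.3, statsmodels 0.14.6 and matplotlib 3.10.9 were used.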

Additional observations from a re-analysis of the deposited data

How the results depend on the processing

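No paired analysis was possible because there is only 1 array in each group. Differences at the floor of an array depend on the constant and the filter, and no value here separates a dim gene from background. The median of the cilia genes, −0.24 as reported, was −0.053 after loess, −0.051 after quantile normalization, −0.52 with the filter at the median (3 genes), −0.34 with a constant of 1 and −0.12 with a constant of 64. The share of lower genes, 73.1% as reported, was 57.7% after loess, 53.8% after quantile normalization and 100% of the 3 genes with the filter at the median, against 49.3%, 48.8% and 48.7% of all genes in the same settings. Counts at least 2-fold higher, 3 as reported, were 0 with the filter at the median, with a constant of 64 and at 3-fold (0.284%, 0.0881% and 0.169% of all genes). Counts at least 2-fold lower, 1 as reported, were 2 with no filter (3.48% of all genes), 0 with the filter at the median (0.613%), 2 with a constant of 1 (5.92%), 0 with a constant of 64 (0.176%), 3 at 1.5-fold (9.58%) and 0 at 3-fold (0.559%). Medians that changed sign were those of ciliary signalling (0.041 after loess, 0.040 after quantile normalization), male sensory neuron (0.21 with no filter), touch neuron (−0.0029 with the filter at the median), pan-neuronal (−0.066 with the brightest probe set) and axoneme, rootlet and membrane genes (−0.011 without shared probe sets). The cause was not tested.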
